A study of Arabidopsis thaliana with 16 samples.

Results

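Binding of HSFA1b in heat-stressed (HS) 35S:HSFA1b leaves was compared with binding in non-stressed (NS) leaves of the same genotype, using the ChIP-seq (chromatin immunoprecipitation sequencing) peaks deposited for each condition. All peaks on chromosomes 1 to 5 of the 2 lists were taken, 13262 under HS and 19640 under NS, which are 32902 of the 35133 peaks in the 4 lists of the series. The plants were Arabidopsis thaliana Col-0 that express HSFA1b fused to a red fluorescent protein from the 35S promoter, and leaves were taken at 5 weeks. Heat stress was 30 min at 37 °C with the relative humidity raised to 86%, and NS plants remained at 23 °C and 60% humidity. Both groups carry the transgene and both were immunoprecipitated with an antibody against RFP. The 35S promoter, from a plant virus, drives expression in most tissues and at high levels, so that the amount of HSFA1b and the cells that hold it differ from those of a wild-type leaf. Each condition had 2 samples, but the caller pooled them into 1 list, and all values below are therefore single values with no replicate error. No test between HS and NS was possible, and intervals (95%) cover counting error only.

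HSFA1b belongs to the clade A1 heat shock factors, the master activators of the heat shock response in plants. In unstressed cells these factors are held back by HSP70 and HSP90 chaperones. On heating, misfolded proteins draw the chaperones away, and the factors form trimers and bind heat shock elements (HSEs), in which GAA units alternate with their reverse complement TTC, in the promoters of chaperone genes. The tagged factor was expressed here without the native promoter, and its binding was sampled early in heat stress.

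A main set was formed in each list from peaks with q at most 0.05, a fold enrichment (FE) of at least 2 over the local background and a summit outside the pericentromere. The summit is the position of highest coverage, and each peak has 1. The main sets held 1342 HS and 3444 NS peaks (ratio 0.390), while the HS pool held 13481546 fragments and the NS pool 19579327 (ratio 0.689). An HS summit within 100 bp of an NS summit was called kept, an HS summit without one gained, and an NS summit without an HS summit lost. These words describe the lists, not an amount of binding. The paper counted broad peaks over strongly transcribed genes as false positives, whatever their q or FE. It stated no limit of width or transcription, so such peaks remain in these sets. Which of the peaks below that step would have removed cannot be told.

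By this rule 487 summits were kept, 855 gained and 2957 lost. To show what was read at these positions, the windows below carry an HSE of 3 repeats (3 units of 3 bases, alternating in orientation, with 2 bases between units), which is in capitals. They are written 5′ to 3′ on the plus strand of TAIR10, and they were cut to at most 30 bases where the element lay in an untranslated region (UTR). The 4 kept windows come first, then 4 lost windows and 1 gained window.
ftsh4 and HSFA2 (kept), chr2:11135491-11135591: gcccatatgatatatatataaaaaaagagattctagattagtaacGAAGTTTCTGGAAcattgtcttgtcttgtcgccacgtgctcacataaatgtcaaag
BI1 (kept), chr5:19135823-19135923: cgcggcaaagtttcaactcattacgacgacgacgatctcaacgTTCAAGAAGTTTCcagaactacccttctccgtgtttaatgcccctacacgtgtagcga
cpHSC70-2 (kept), chr5:20303341-20303369: caaccattTTCTAGAACCTTCcacttctt
HOP3 (kept), chr4:7341319-7341347: caagagagTTCTCGAAATTTCgaattttt
HSC70-1 (lost), chr5:556554-556582: taaaatgtTTCGAGAATGTTCgatggttg
HSP17.4-CI (lost), chr3:16984853-16984953: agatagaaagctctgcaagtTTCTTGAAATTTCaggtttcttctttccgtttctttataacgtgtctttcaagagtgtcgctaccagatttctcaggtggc
CDC48 (lost), chr3:3019130-3019230: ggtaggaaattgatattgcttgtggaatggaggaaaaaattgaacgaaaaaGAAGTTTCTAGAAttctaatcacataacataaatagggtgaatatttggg
DREB2A (lost), chr5:1602019-1602119: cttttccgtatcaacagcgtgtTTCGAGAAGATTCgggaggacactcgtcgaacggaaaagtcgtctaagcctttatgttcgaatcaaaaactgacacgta
TET2 (gained), chr2:8475041-8475069: tctctttgTTCTTGAAGATTCgtgctttt

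The first window lies between the start sites of ftsh4, which encodes a mitochondrial protease, and HSFA2, a heat-induced factor that prolongs the response. The summit there had an FE of 2.83 under HS and 3.15 under NS. Because the HS summit lay nearest to the start of ftsh4 and the NS summit nearest to that of HSFA2, the same bound region counts as a gained gene for ftsh4 and as a lost gene for HSFA2, although the summit was kept. BI1 (BAX INHIBITOR 1) restrains cell death, cpHSC70-2 is a chloroplast HSP70 and HOP3 links HSP70 to HSP90. Their kept summits had FE values of 2.36, 2.32 and 2.01 under HS. At the lost summits, the FE under NS was 3.23 for HSC70-1 (cytosolic HSP70), 3.22 for HSP17.4-CI (a small HSP), 2.32 for CDC48 (an ATPase that extracts proteins for degradation) and 2.23 for DREB2A (a transcription factor of heat and drought). TET2, which encodes a tetraspanin, carried an HS summit of FE 2.42 with an NS peak of FE 2.19 over it. The windows were chosen for their HSE, so they show only that perfect HSEs occurred in each class. The shares are given below.

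A second set shows the G-box, CACGTG, in capitals, the element of bZIP and bHLH factors. The windows are those of a gained, a kept and a lost summit.
HSP15.7 (gained), chr5:14969179-14969279: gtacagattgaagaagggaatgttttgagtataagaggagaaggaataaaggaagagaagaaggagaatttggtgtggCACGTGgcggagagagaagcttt
VHA-E3 (kept), chr1:23830124-23830224: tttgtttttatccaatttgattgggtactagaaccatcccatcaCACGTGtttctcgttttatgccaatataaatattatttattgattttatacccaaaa
TIL (lost), chr5:23501279-23501308: acgagaggatgcCACGTGgaaagcgtgtag

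The gained window lies in the coding exon of HSP15.7, a small HSP of peroxisomes, 471 bp into the gene. The kept window lies 74 bp upstream of VHA-E3, a subunit of the vacuolar proton pump. The lost window lies in the UTR of TIL, a temperature-induced lipocalin, where the summit had an FE of 3.15 under NS, and where native-promoter plants (NP:HSFA1b, HSFA1b fused to eYFP behind its own promoter) had summits of FE 9.54 under HS and 4.29 under NS.

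Kept summits made up 36.3% of the HS set (interval 33.7% to 38.9%) and 14.1% of the NS set (12.99% to 15.35%). Of the 487 pairs, 379 lay within 50 bp and 212 within 20 bp of each other, and widening the distance from 100 bp to 200 bp added few, giving 541. The positions within 100 bp of an NS summit made up 0.676% of the chromosome arms, and those within 100 bp of an HS summit 0.263%. A summit was kept more often where its FE was high. With the summits of each set ranked by FE and divided into 4 equal bins, 48.1% of the HS summits in the highest bin were kept (42.6% to 53.6%), against 28.0% (23.2% to 33.1%) in the lowest. In the NS set the kept share was 36.4% (33.1% to 39.7%) in the highest bin and 3.48% (2.36% to 4.94%) in the lowest. The FE limit in both lists builds in part of this order, since a weak summit more easily misses the limit in the other list. Matched to all deposited peaks of the other list, 44.2% of HS and 43.0% of NS summits were kept. How much of the order the limit makes was not tested.

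The gained and the lost summits differed in what the other condition held at the same place. Of the 855 gained summits, 726 (84.9%) lay under a deposited NS peak whose own summit was elsewhere. Those NS peaks had a median width of 28678 bp and a median FE of 2.83, and 653 of the 726 lay under an NS peak with an FE of at least 2. A further 106 had an NS summit within 100 bp that missed the main set, 9 peaks met an NS peak in part, and 14 (1.64%) met none. Of the 2957 lost summits, 895 (30.3%) met no deposited HS peak, 994 had an HS summit within 100 bp that missed the main set, 939 lay under an HS peak with another summit and 129 met an HS peak in part. A gained summit was thus in most cases another high point within a wide region called in both conditions, while lost summits were divided almost evenly among no HS peak, a weaker HS summit and an HS peak with its summit elsewhere.

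**Figure D1:**
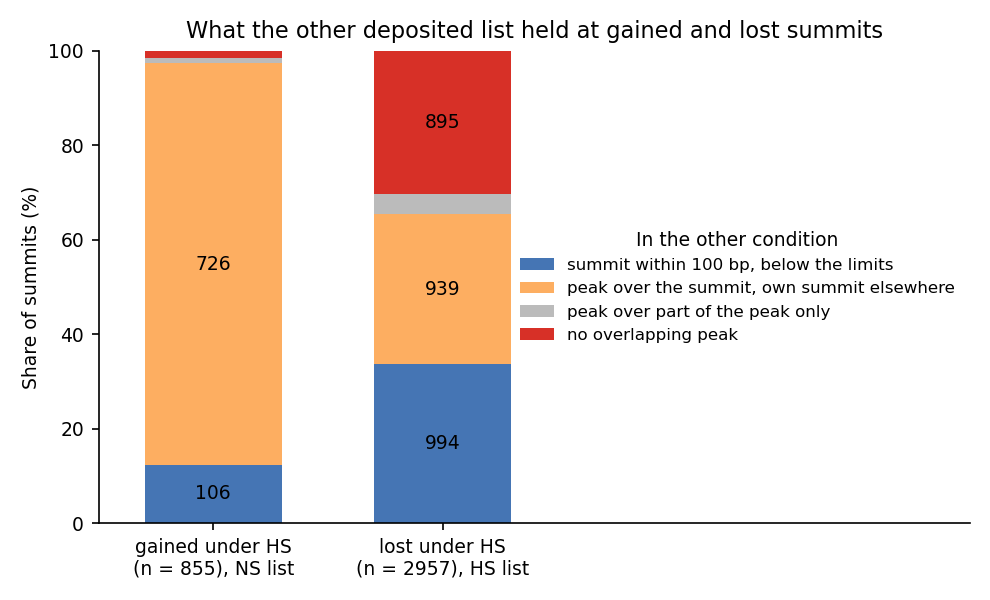
Stacked bars give, for the summits gained under HS (left) and lost under HS (right), the share in percent by what the other condition's deposited list held there, with counts inside the larger segments. Of the gained summits 726 lay under an NS peak with its summit elsewhere, and of the lost summits 895 met no HS peak.

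At the 487 kept summits, the FE was lower under HS at most sites. The median FE was 2.24 under HS and 2.78 under NS, and the median log2 ratio of HS to NS was −0.28 (interval −0.31 to −0.25, quartiles −0.43 and −0.11). The FE was higher under HS at 68 of the 487 (14.0%). With coverage at the summit relative to the number of treatment fragments in place of FE, the log2 ratio was −0.25. The HS pool had fewer fragments and was set against 2 control libraries, the NS pool against those 2 and 2 more, so heat, depth and controls cannot be told apart in this ratio.

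**Figure D2:**
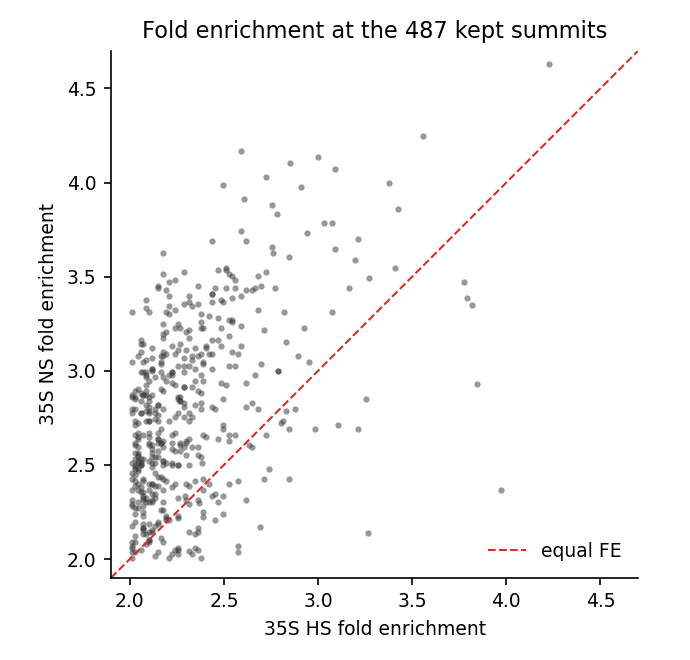
Each point is 1 of the 487 kept summits, with its FE in the 35S HS list on the horizontal axis and in the 35S NS list on the vertical axis, both linear and both cut at the limit of 2. Most points lie above the dashed line of equal FE, and 68 lie below it.

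The highest kept summit in both lists lay in the UTR of AT2G26730, a leucine-rich repeat kinase gene, with an FE of 4.23 under HS and 4.63 under NS. The next highest under HS were among the few with a higher FE under HS. AT3G48550, which encodes a SHOOT GRAVITROPISM-like protein, had 3.97 under HS and 2.37 under NS. WRKY22, a defence regulator, had 3.84 under HS and 2.93 under NS. BRG1 (3.82 under HS, 3.35 under NS), the DNA-binding protein gene AT3G10040 (3.79 under HS, 3.39 under NS) and LBD41 (3.77 under HS, 3.47 under NS) had the same order. ADT5, an enzyme of phenylalanine synthesis, had 3.56 under HS and 4.25 under NS, and CPN20, the chloroplast co-chaperonin, had 3.42 under HS and 3.86 under NS. Of these 8 genes, which were chosen by their HS value, 5 had a higher FE under HS.

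All 8 of the strongest gained summits near protein-coding genes lay under an NS peak, whose width ran from 1779 bp at AT2G37190 to 5098380 bp at AT1G28265. HSP15.7 had an HS summit of FE 3.48, and the NS peak over it was 271849 bp wide with an FE of 3.41. ESM1, which acts in glucosinolate breakdown, had an HS summit of FE 3.43 at 3 bp from its start site, under an NS peak of FE 2.84 whose main-set summit was 771 bp away. AT3G27250 followed with 3.36 under HS and 2.77 for the NS peak, and AT2G37190, a ribosomal protein gene, with 3.27 under HS and 1.53 for the NS peak. For AT5G44060, AT1G52550, AT1G28265 and AT5G40340 the HS summit had an FE of 3.21 to 3.24, and the NS peak over it was higher, with an FE of 3.51 to 4.65. AT5G44060, annotated from embryo sac development, had a gained and a lost summit at the same place in its coding exon, 493 bp and 379 bp from the start site, with 3.24 under HS and 3.90 under NS.

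The 14 gained summits with no NS peak were weak. The highest 8 near protein-coding genes had FE values of 2.07 to 2.70, at AT1G03070 (Bax inhibitor-1 family), cPT5, AT3G08980, GSTU19 (a glutathione transferase), AT5G60530 and AT4G21020 (both late embryogenesis abundant, LEA, proteins), NF-YB8 (a subunit of the CCAAT-binding factor NF-Y) and AT3G05050. Of the 14, 11 lay in a coding exon (78.6%, 49.2% to 95.3%). A native-promoter summit lay within 100 bp of 0 of them (interval 0% to 23.2%, or up to 21.4% where a count of 0 is taken to allow 3).

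The 895 lost summits with no HS peak reached higher values and were narrow, with a median width of 684 bp. The highest was at HSP90.2, a cytosolic HSP90, with an FE of 3.26 under NS and its summit in the UTR 241 bp from the start site. MIPS1, the first enzyme of inositol synthesis, followed with 3.14 and a G-box within 50 bp of the summit. CRK5 and CRK11, both cysteine-rich receptor-like kinases, had 3.08 and 2.98. AT4G03410, WAVH2 and ZFP8 had 3.02, 3.0 and 2.98. NP:HSFA1b plants had a summit within 100 bp in both conditions at HSP90.2 and WAVH2. It had an FE of 5.86 under HS and 5.18 under NS at HSP90.2, and of 5.18 under HS and 5.41 under NS at WAVH2. The strongest lost summits near protein-coding genes were in NS peaks of 5412 bp (AT1G17990) to 4645733 bp (AT1G56140). AT1G56140 (3.80), AT1G62520 (3.77), AT5G23280 (3.75, a TCP factor), AT1G61460 (3.73), AT5G25280 (3.69), AT1G17990 (3.63) and AT1G27290 (3.63) all had an HS peak over the summit or an HS summit within 100 bp, with an FE of 1.53 to 3.15.

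Position in the genome separated the gained summits from the others. Of the gained summits, 33.9% lay in a coding exon (30.8% to 37.2%), against 12.5% (9.72% to 15.8%) of the kept and 9.81% (8.76% to 10.9%) of the lost. Intergenic sequence held 23.0% of the gained, 46.2% of the kept and 53.3% of the lost summits, and UTRs held 32.2%, 31.6% and 28.7% in the same order. A TSS (transcription start site) lay within 250 bp of 40.1% of the gained (36.8% to 43.5%), 50.9% of the kept (46.4% to 55.5%) and 45.9% of the lost (44.1% to 47.7%) summits. In the HS list, the median peak width was 4671 bp for gained and 1158 bp for kept summits. In the NS list, it was 2557 bp for kept and 1473 bp for lost summits. Within these classes, peaks of at most 1000 bp had coding-exon shares of 27.6% (37 of 134), 9.69% (22 of 227) and 6.66% (71 of 1066) for gained, kept and lost.

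**Figure D3:**
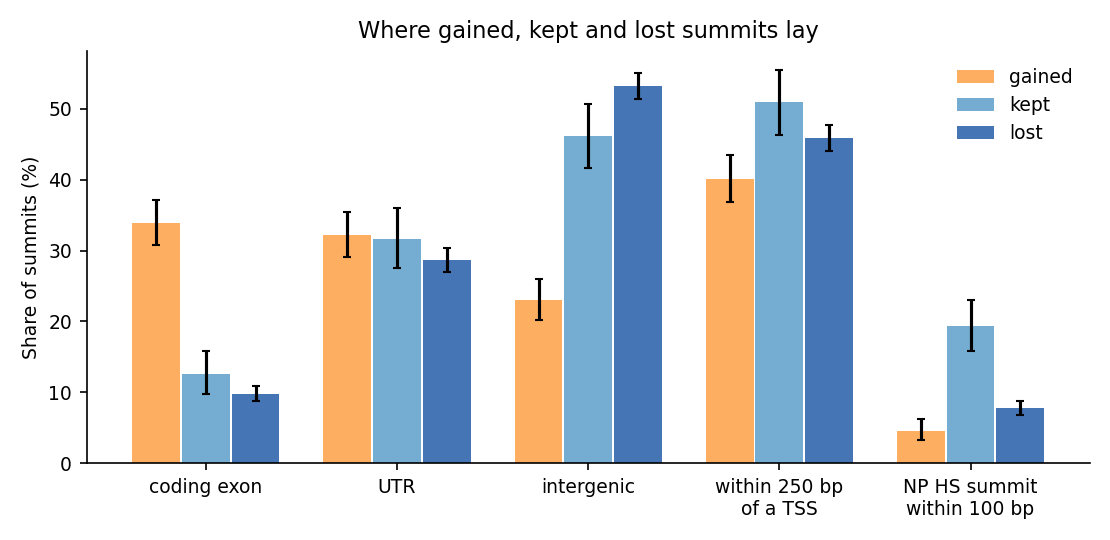
Bars give the share of gained (n = 855), kept (n = 487, HS summits) and lost (n = 2957) summits in each position, in percent, with 95% Clopper-Pearson intervals as error bars. Gained summits stand apart in coding exons (33.9%) and in intergenic sequence (23.0%), and kept summits have the largest share with an NP HS summit (19.3%).

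Gained summits were spread unevenly over the chromosomes. Chromosomes 1 and 5 held 30.5% and 37.7% of the gained summits and 19.4% and 24.6% of the lost, whereas chromosomes 2 and 4 held 7.13% and 1.99% of the gained and 16.4% and 12.5% of the lost. Deposited peaks covered 59.5% of chromosome 1 under HS and 69.7% under NS, but 0.923% of chromosome 4 under HS and 6.79% under NS. Chromosome 3 went the other way. Peaks covered 40.1% of it under HS and 45.5% under NS, yet it held 22.7% of the gained, 29.8% of the kept and 27.1% of the lost summits. With each chromosome arm divided into 5 equal parts, the outermost held 1.87% of the gained, 7.39% of the kept and 16.5% of the lost summits. Whether this uneven cover had a part in the positions and motifs of gained summits was not tested.

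An HSE of 3 repeats lay within 50 bp of 3 gained (0.351%, 0.0724% to 1.02%), 12 kept (2.46%, 1.28% to 4.27%) and 40 lost (1.35%, 0.968% to 1.84%) summits. Windows of the same 101 bp across the chromosome arms held one in 0.200% of cases, and windows centred 1 kb to either side of the summits in 0.175%, 0.103% and 0.186% for gained, kept and lost. The share at gained summits included that of the arms within its interval, and the shares at kept and lost summits did not. At lost summits with no HS peak it was 1.12% (0.537% to 2.05%). The HSE of 2 repeats (GAANNTTC or TTCNNGAA, part of each longer element) was found at 6.55% (4.99% to 8.42%) of gained, 10.9% (8.26% to 14.0%) of kept and 11.0% (9.85% to 12.1%) of lost summits, and in 7.80% of windows in the arms.

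The G-box was several times more common than the HSE of 3 repeats, both at the summits and in windows of the arms (1.17% against 0.200%). It lay at 3.51% of gained (2.38% to 4.97%), 11.3% of kept (8.62% to 14.5%) and 11.2% of lost (10.1% to 12.4%) summits, against 1.75%, 2.16% and 1.34% of the windows 1 kb away and 1.17% of windows in the arms. At lost summits with no HS peak it reached 13.9% (11.7% to 16.3%). The unfolded protein response element (UPRE, TGACGTGG or its complement), to which bZIP28 and bZIP60 bind, lay at 2 gained (0.234%), 5 kept (1.03%) and 43 lost (1.45%, 1.05% to 1.95%) summits, and in 0.201% of windows in the arms. GAGA repeats (GAGAGAGA or its complement) did not follow this order, with 8.54% (6.75% to 10.6%) of gained, 9.86% (7.36% to 12.9%) of kept and 6.97% (6.08% to 7.94%) of lost summits against 1.70% in the arms. The site II element (TGGGCC), common in promoters of ribosomal protein genes, lay at 5.15%, 5.54% and 4.7% of gained, kept and lost summits against 1.57% in the arms. The lower G-box and HSE shares of gained summits depended in part on the peaks taken and on how the classes were formed. Within the classes above, peaks of at most 1000 bp had the G-box at 3.73% of gained, 11.9% of kept and 13.4% of lost summits. With wider peaks dropped from both lists and the classes formed anew, it lay at 8.53% (5.42% to 12.6%) of gained and 9.71% (4.76% to 17.1%) of kept summits. At an FE of at least 2.5 in both lists the G-box lay at 2.70% of gained and 10.1% of kept summits. The HSE of 3 repeats then lay at 1.80% of gained and 1.12% of kept summits, from 2 and 1 matches, so that its order turned. A match describes the sequence in the window and not a site in use.

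**Figure D4:**
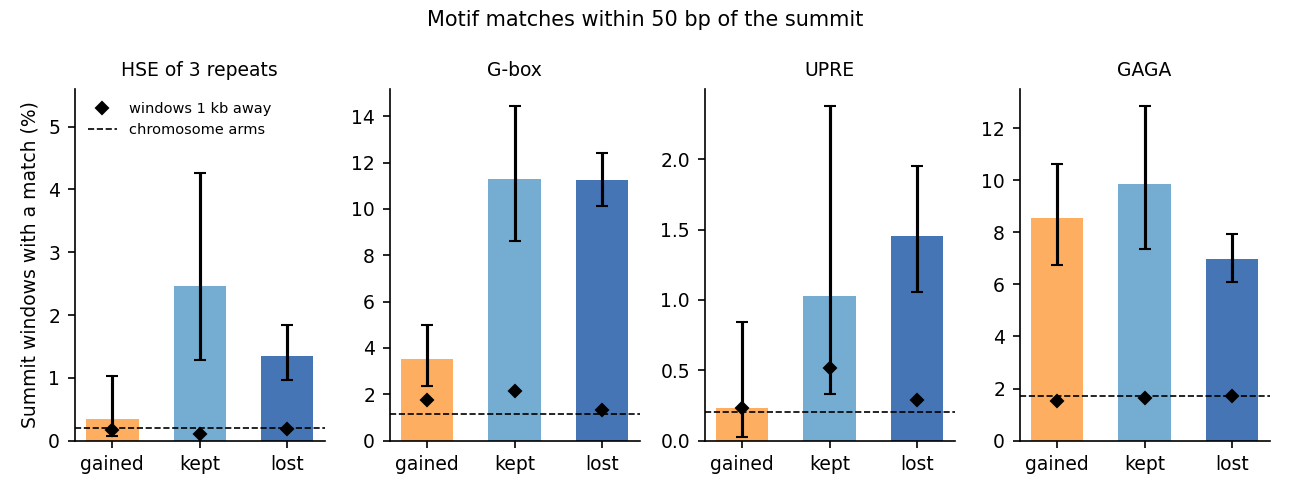
Bars give the share of 101 bp summit windows that hold each motif, in percent, for gained, kept and lost summits, with 95% Clopper-Pearson intervals. Diamonds mark windows centred 1 kb from the summits and the dashed line all windows of the chromosome arms, and the vertical scale differs between panels. The G-box share was 3.51% at gained and 11.3% and 11.2% at kept and lost summits.

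The native-promoter lists, which come from other plants, another tag and another antibody, gave a readout that the 35S lists did not use. A summit of the NP HS main set (1181 peaks) lay within 100 bp of 39 gained (4.56%, 3.26% to 6.18%), 94 kept (19.3%, 15.9% to 23.1%) and 230 lost (7.78%, 6.84% to 8.80%) summits. For the NP NS main set (876 peaks) the shares were 2.46%, 10.3% and 4.80%. Lost summits with no 35S HS peak still met an NP HS summit in 9.72% of cases (7.86% to 11.9%).

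At 37 kept summits both native-promoter lists had a summit within 100 bp, so that these positions were listed in all 4 conditions. At AT5G61970, a signal recognition particle gene, the 35S summit had an FE of 3.03 under HS and 3.78 under NS, and the native-promoter summit 27.0 under HS and 4.16 under NS. ACT7 (vegetative actin) had 3.38 under HS and 4.0 under NS in 35S plants, and 17.0 under HS and 7.80 under NS in NP plants. The window shared by ftsh4 and HSFA2 had 15.5 under HS and 7.92 under NS in NP plants. CPN20 had 14.2 under HS and 9.58 under NS, and WRKY22 had 12.6 under HS and 2.84 under NS. Chaperone genes in this group were CPN20, cpHSC70-2, Cpn60beta2 (chloroplast chaperonin), BOB1 (an HSP20-like chaperone of development and thermotolerance) and J3 (an HSP40). HSFB2B and the genes BI1, PMZ (a stress-associated zinc finger protein), CESA1 (cellulose synthase), CSI1 (a partner of cellulose synthase), FD1 (ferredoxin), WRKY47, ARR4 and MYB64 belonged to it as well. BOB1 had an FE of 2.33 under HS and 3.06 under NS in 35S plants, with NP values of 11.3 under HS and 5.42 under NS, and an HSE of 3 repeats 33 bp from its summit. Across the kept summits of the 2 constructs by the same rule, the median log2 ratio of HS to NS was −0.28 in 35S plants (487 summits) and 0.74 in NP plants (289 summits).

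Each summit was given to the gene with the nearest TSS, which yielded 1323 genes under HS and 3279 under NS. A gene nearest to no main-set summit can still have one within 1 kb that lies nearer to another TSS. Of the 37899 annotated genes, 678 (1.79%) were gained (HS alone), 645 (1.70%) kept (both) and 2634 (6.95%) lost (NS alone). Of the lost genes, 1524 (57.9%) were still nearest to a summit of the HS list below the limits, and of the gained genes 191 had such an NS summit. Of the kept genes, 474 had their summits within 100 bp of each other. Protein-coding genes made up 555 of the gained, 565 of the kept and 2269 of the lost genes. Genes for tRNAs, whose own transcription uses RNA polymerase III, were gained in 23, kept in 21 and lost in 43 of 625 cases (3.68%, 3.36% and 6.88%).

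Of the 78 genes in 4 lists of the heat shock response (heat shock factors, large chaperones, small HSPs, co-chaperones and regulators), 7 (8.97%) were gained, 9 (11.5%) kept, 24 (30.8%) lost and 38 nearest to no main-set summit. Over all annotated genes the shares were 1.79%, 1.70% and 6.95%, and over protein-coding genes 2.02%, 2.06% and 8.27%. These lists and those below were chosen with earlier results of these data known, so the shares are no independent comparison. For the 48 of the 78 with a deposited summit of any FE in the gene or within 1 kb in both lists, the highest FE was lower under HS in 37, with a median of 1.83 under HS and 2.57 under NS (median log2 ratio −0.44). Over all 8807 annotated genes with such a summit in both lists, it was lower under HS in 63.5%, with medians of 1.71 under HS and 1.84 under NS (median log2 ratio −0.11). Of the 24 lost genes, 17 had a deposited HS summit within 1 kb, with an FE of 1.19 to 2.83, and 23 had an NP HS peak of FE 2 or more. All 9 kept genes had such an NP HS peak too, as did genes nearest to no main-set summit, such as MBF1C and HSP70-5. The share over all annotated genes is not given here.

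Among 21 heat shock factor genes, HSFA2, HSFA4A and HSFA7A were lost, HSFB2B was kept, and HSFB2A and HSFB4 were gained. The others were nearest to no main-set summit, but some had summits within 1 kb. These had an FE of 2.07 under HS and 3.505 under NS at HSFC1, and of 2.15 under HS and 2.43 under NS at HSFA8. HSFA2 had 2.83 under HS and 3.15 under NS at the promoter it shares with ftsh4. HSFA7A, a heat-induced factor, had 1.72 under HS and 2.61 under NS. Its NS summit lay 1798 bp downstream of the start site, past the annotated end of the gene. HSFA4A had no deposited HS summit and 2.1 under NS. HSFB2B and HSFB2A encode class B factors, which act as repressors. HSFB2B had 2.38 under HS and 3.3 under NS, 218 bp and 250 bp into the gene. HSFB2A was gained by an HS summit of FE 2.18 at 1164 bp into the gene, while an NS peak with an FE of 2.68 lay over it with its summit elsewhere. For HSFB4 the HS summit lay far upstream (TSS distance −4916 bp) in an NS peak 4645733 bp wide, so that this assignment rests on distance alone.

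Large chaperones gave the most kept genes. Of 21 genes for HSP90, HSP70, HSP100 and HSP60 proteins, 0 were gained, 5 kept and 9 lost. The kept genes encode organelle chaperones, though the organelle chaperone genes HSP90.5 and ClpB3 were lost. HSP90.6, cpHSC70-1, mtHSC70-1 and HSP60-2, also of organelles, were nearest to no main-set summit. Within 1 kb of cpHSC70-1, however, lay summits of FE 2.06 under HS and 2.05 under NS. cpHSC70-2 had 2.32 under HS and 2.73 under NS, and HSP60 2.92 under HS and 3.23 under NS. mtHSC70-2 was kept through different summits, with 2.63 under HS (TSS distance −204 bp) and 3.07 under NS (208 bp). ClpB4, a mitochondrial disaggregase, had 2.03 under HS and 2.61 under NS, and HSP60-3A 2.07 under HS and 2.16 under NS at the summits nearest to its start. The highest deposited summit within 1 kb of HSP60-3A had 3.21 under HS and 2.69 under NS. The lost genes included cytosolic chaperones, while HSP90.4, HSC70-2 and HSP70-5, also cytosolic, were nearest to no main-set summit. HSP70-5 still had a summit of FE 2.06 under NS within 1 kb, and of 1.33 under HS. The deposited summit within 1 kb had an FE of 1.91 under HS and 3.23 under NS for HSC70-1, 1.96 under HS and 3.23 under NS for HSC70-3, and 1.84 under HS and 3.07 under NS for HSP70-4. HSP101, the cytosolic disaggregase needed for thermotolerance, had 1.25 under HS and 2.72 under NS. HSP90.1 had 1.34 under HS and 2.77 under NS. HSP90.2, HSP90.3 and the chloroplast HSP90.5 had no deposited HS summit and 3.26, 2.32 and 2.21 under NS. ClpB3, the chloroplast disaggregase, had 1.45 under HS and 2.33 under NS.

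Small HSPs, which hold unfolding proteins in a refoldable state, split in both directions. Of 17 genes, 3 were gained, 1 kept and 5 lost. HSP17.4-CI had an FE of 1.19 under HS and 3.22 under NS, HSP17.8-CI 1.57 under HS and 2.95 under NS, and HSP17.6B-CI 1.66 under HS and 2.5 under NS. HSP23.6-MT, of mitochondria, had 1.37 under HS and 2.26 under NS. At the neighbouring class II genes, HSP17.7-CII was lost, with 1.19 under HS and 3.08 under NS. HSP17.6-CII was kept through different summits, with 3.06 under HS at 914 bp from its start and 2.18 under NS at 211 bp. HSP21, the chloroplast small HSP, was gained by a summit 736 bp into the gene, with 2.21 under HS and 1.59 under NS. HSP15.7 and HSP14.7 were gained with 3.48 and 2.71 inside NS peaks of FE 3.41 and 3.02. All 5 lost small HSP genes had their NS summit within 55 bp of the start site, while the 3 gained summits and the kept HS summit lay 471 bp or more from it.

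Of 19 co-chaperone and regulator genes, 2 were gained, 2 kept and 7 lost. J3 had 2.09 under HS and 3.33 under NS, and HOP3 had 2.01 under HS and 3.04 under NS. DREB2A and BAG6, a cochaperone of the BAG family, had no deposited HS summit and 2.23 and 2.32 under NS. APX1, the cytosolic ascorbate peroxidase, had 1.83 under HS and 2.69 under NS. ROF1 and ROF2, both FKBP-type co-chaperones of HSP90, had 1.55 and 1.37 under HS and 2.53 and 2.78 under NS. HSA32 had 1.69 under HS and 2.33 under NS, and J2 was lost inside a wide HS peak. HOP2 was gained with an FE of 2.5 at 48 bp from its start, under an NS peak 533074 bp wide, and NP plants had 10.7 under HS and 5.42 under NS there. DREB2B was gained with 2.48 under HS against 1.97 under NS.

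**Figure D5:**
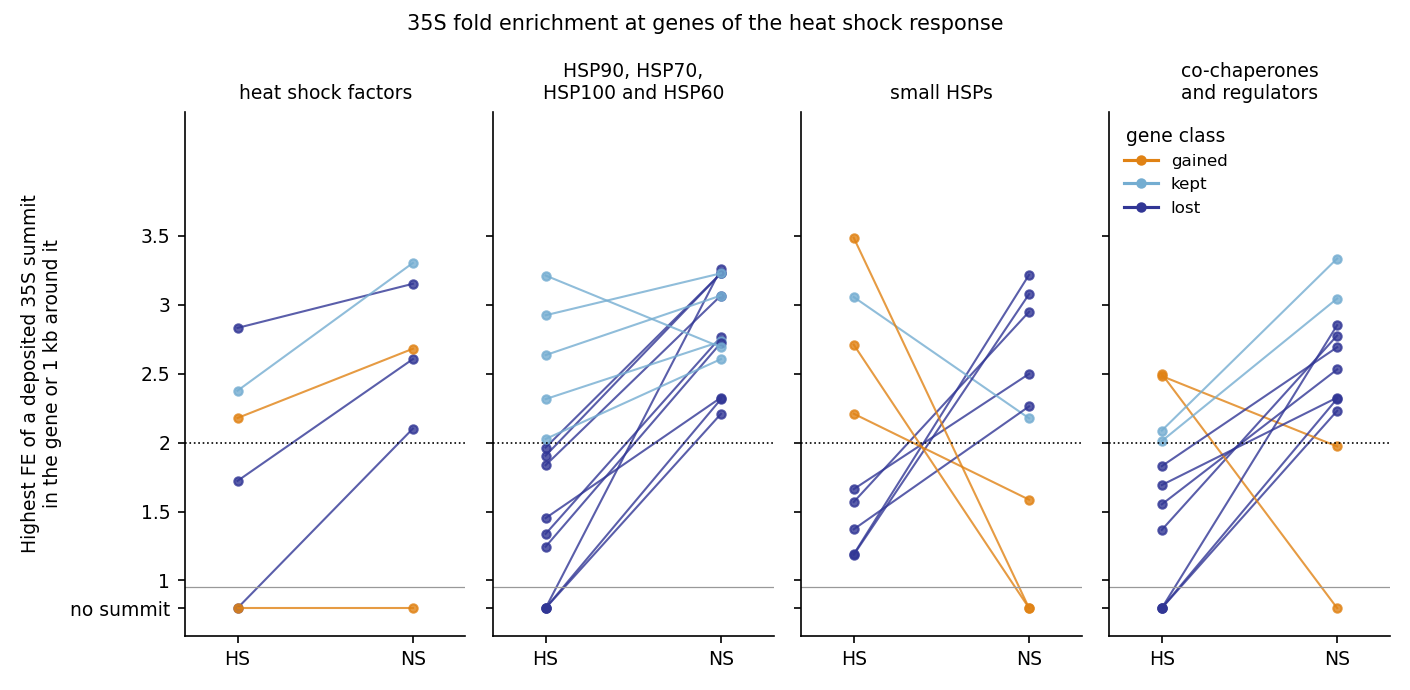
Lines join, for each gene of 4 heat shock lists with a main-set peak in either condition, the highest FE of a deposited 35S summit in the gene or within 1 kb under HS (left) and NS (right), coloured by gene class, with the FE limit of 2 dotted. Points below the grey line have no such summit, though a wide peak whose summit lies elsewhere may still cover the gene, as for HSP15.7, HSP14.7, HOP2 and HSFB4. Most lost genes end below 2 under HS, and HSFA2 (2.83 under HS, 3.15 under NS) is the lost gene above it.

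Outside the heat shock response, the list of rapid stress regulators held the largest share of lost genes, 11 of 20, with 1 kept and 0 gained. Those lost were the zinc finger genes ZAT6, ZAT11, ZAT12 and SZF1, the ethylene response factors ERF1A, ERF2, ERF6, ERF13 and ERF104, CBF2 and WRKY40. ZAT12, a regulator of oxidative stress responses, had 1.81 under HS and 2.86 under NS. ERF2 had 1.996 under HS and 2.67 under NS, with the HS value just below the limit. ERF5 was kept, with 2.53 under HS and 3.52 under NS. In the 12 genes of this list with a summit in both lists, the FE was lower under HS in 12, with a median log2 ratio of −0.54. Over all annotated genes with a summit in both lists it was lower in 63.5%, with a median log2 ratio of −0.11. For this list and those below, the shares over all annotated genes were 1.79% gained, 1.70% kept and 6.95% lost.

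Light-harvesting and Rubisco small subunit genes were divided among the classes. Of 21, 5 were gained, 3 kept and 4 lost, and among the 14 with a summit in both lists the FE was lower under HS in 6, with a median of 2.1 under HS and 2.15 under NS. LHCB2.1 and LHCB2.2, which encode antenna proteins of photosystem II, were gained with 2.01 and 2.54 under HS against 1.91 and 1.66 under NS, at 737 bp and 758 bp into the genes. LHCA4, of photosystem I, was kept through different summits, with 2.85 under HS at 2046 bp from its start and 2.26 under NS at 1185 bp. The gained and kept HS summits of this list lay 485 bp or more downstream of the start site, and NP HS summits of FE 2 or more were found within 1 kb of 2 of the 8 genes, LHCB4.2 and LHCA4. These genes are near-identical copies in part, and reads may be shared between them.

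Clock genes were lost in 4, kept in 2 and gained in 1 of 19 cases. CCA1, a morning factor of the central loop, had 1.89 under HS and 2.57 under NS. PRR9 and ELF4 had no deposited HS summit and 2.39 and 2.13 under NS, and ELF3 had 1.71 under HS and 2.07 under NS. RVE7 had 2.62 under HS and 3.43 under NS, and RVE1 was kept through summits more than 3 kb upstream of its start. Of 24 G-box regulators and photoreceptors, 1 was gained, 2 kept and 5 lost. PIF4, PIF5 and PIF7, which promote growth in shade and warmth, had 1.71, 1.83 and 1.75 under HS and 2.61, 2.61 and 2.69 under NS. PIF1 was lost, with 1.91 under HS and 2.18 under NS, and PIF3 was gained, with 2.19 under HS and 1.93 under NS. PHYB, the photoreceptor that also senses temperature, was kept, with 2.39 under HS and 3.23 under NS, and PHOT1 with 2.09 under HS and 2.97 under NS.

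Genes of the endoplasmic reticulum (ER) and the unfolded protein response numbered 21 in their list. Of these 1 was gained (4.76%), 0 kept and 3 lost (14.3%), against 1.79%, 1.70% and 6.95% of all annotated genes. BZIP28, which activates ER chaperone genes, had 1.98 under HS and 2.69 under NS, and BZIP17 had 1.80 under HS and 2.44 under NS. SHD, the HSP90 of the ER, had 1.46 under HS and 2.04 under NS, while NP plants had 28.6 under HS and 3.98 under NS within 1 kb. CNX1 was gained by a summit 2882 bp downstream of its start site, past the annotated end of the gene, with 2.15 under HS and 1.94 under NS. Of 5 polyubiquitin genes, UBQ10 was lost, with 1.26 under HS and 2.91 under NS. In all 188 genes of the 10 lists, 15 were gained (7.98%), 17 kept (9.04%) and 52 lost (27.7%), against the same shares of all annotated genes.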

How the data were processed

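ChIP-seq peaks from 35S:HSFA1b leaves under HS and NS were compared, and samples were grouped by their titles. Per the labels and the study's methods, the authors used GSNAP to map reads to TAIR10, discarded duplicates and then called peaks in MACS2 (version 2.0.10.20131028 per the file headers). Each list was called from 2 pooled treatment libraries, against 2 control libraries for HS and 4 for NS, of which 2 were shared. The deposited columns hold coverage by fragments (pileup) at the summit, fold enrichment (a ratio to the local background) and −log10 p-values and q-values, of which the p-values were not used. The HS pileups had been scaled by 0.722 by the caller, and this was divided out where pileups were compared. Depth was 13481546 HS and 19579327 NS fragments after filtering.

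Main sets, the pericentromeres (longest run of 500 kb windows whose count of protein-coding genes was under 50% of the median window, 16.7 Mb in all) and the classes were computed with Python 3.11.15, numpy 2.4.6, pandas 2.3.3 and scipy 1.17.1. The authors treated broad peaks over strongly transcribed genes as false positives. Their text states no limit for this step, and such peaks were kept. The RefSeq copy of the assembly gave the sequences and 37899 genes, and 0 peaks ran past a chromosome end. Intervals of shares are exact binomial (Clopper-Pearson), those of medians from order statistics, and a count of 0 was taken to allow 3 counts. With 1 pooled list a condition there are no replicates, and no test was run. The code was tested on simulated peaks and sequences. Named genes were the 8 of highest FE in each class (kept, gained, lost, and gained or lost with no peak in the other list), kept genes with a summit in both NP lists and members of 10 gene lists. Of the 8 genes of each class, 1 gene in all is not reported here, and only some of the list members and of the kept genes with NP summits are named. The members and lists were chosen with earlier results of these data known. The settings varied were the FE limit, pericentromere, peak width, size of the NS list, summit distance, matching to deposited peaks, gene assignment, measure, window, mismatches and TSS distance.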

Additional observations from a re-analysis of the deposited data

Results flagged for a closer look

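Peaks with an FE of at least 2 and a summit in a pericentromere were left out of the main sets and were flagged as signal outside the comparison. There were 66 such peaks under HS and 64 under NS, and their highest FE was 4.94 under HS and 4.65 under NS, above the highest values of the main sets (4.23 under HS and 4.63 under NS). The HS value was on chromosome 2 and the NS value on chromosome 1.

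The change between HS and NS at kept summits was flagged because it had opposite signs in the 2 constructs. The median log2 ratio of FE, HS over NS, was −0.28 at the 487 kept summits of 35S plants and 0.74 at the 289 kept summits of NP plants, where 88.6% had a higher FE under HS. This difference between the constructs was not tested, since each list is 1 pool.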

How the results depend on the processing

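No paired analysis was possible because each list was called from pooled libraries, which also means that no replicate could be left out. The median log2 ratio stayed below 0 under every alternative run for it. Of 124 values recomputed, 46 stayed within the interval of the reported share (or 1.5 times the reported count) and 78 moved, and the cause was not tested beyond the construction of each setting. Without an FE limit there were 12349 HS and 18391 NS peaks, of which 27.8% and 18.7% were kept, 2833 genes gained, 5868 kept and 7017 lost, a median log2 ratio of −0.14, NP HS shares of 0.965% (gained), 5.50% (kept) and 2.03% (lost), and 71 kept list genes. With an FE of at least 2.5 there were 200 HS and 1001 NS peaks, 44.5% and 8.89% kept, 104 genes gained, 96 kept and 888 lost, a log2 ratio of −0.25, G-box at 13.9% of lost summits, HSEs at 1.80% of gained, 1.12% of kept and 2.52% of lost summits (an order that places kept below both gained and lost, from 1 kept and 2 gained matches), TSS-proximal shares of 30.6% (gained) and 41.8% (lost), and NP HS shares of 9.91% (gained), 34.8% (kept) and 16.0% (lost). With peaks of at most 1000 bp there were 361 HS and 1181 NS peaks, 28.5% and 8.72% kept, 241 genes gained, 113 kept and 1033 lost, a log2 ratio of −0.21, G-box at 8.53% of gained and 13.4% of lost summits, HSEs at 1.55% of gained, TSS-proximal shares of 46.5% (gained) and 65.0% (kept), coding-exon shares of 20.9%, 4.85% and 6.59% (gained, kept, lost), NP HS shares of 10.5%, 30.1% and 10.5% (gained, kept, lost), and 3 list genes gained, 4 kept and 22 lost. In this setting the other 35S list was limited in width as well, so that the classes were formed anew. The NP HS shares of gained and lost summits were then nearly equal (27 of 258 and 113 of 1078). With the NS list cut to the HS number, 28.0% of HS and 28.0% of NS summits were kept, 839 genes lost, G-box at 12.7%, HSEs at 1.86%, TSS-proximal 39.5% and NP HS 13.6% of lost summits, and 30 list genes lost. The TSS-proximal share of gained summits was then 42.1%, above that of lost summits, where the reported order was the other way. A summit distance of 50 bp gave 28.2% of HS and 11.0% of NS summits kept, and 200 bp gave 40.3% and 15.71%. Matching to all deposited peaks gave 44.2% and 43.0%, with 2360 genes kept and 1110 lost. Coverage relative to the number of fragments gave a log2 ratio of −0.25. Windows of 100 bp either side gave G-box shares of 7.02%, 15.6% and 18.7% (gained, kept, lost), and 1 mismatch gave HSE shares of 5.26%, 7.39% and 6.63%. A TSS distance of 500 bp gave 56.0%, 62.0% and 57.96%. Assigning list genes by summits in the gene or within 1 kb gave 26 kept. The HS pool was the smaller, and the part of depth in the shorter HS list was not tested. Each peak has 1 summit, however wide it is.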
